A study of Homo sapiens with 4 samples.

Results

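The Hippo pathway genes described here are the kinases STK3, STK4, LATS1 and LATS2, the co-activators YAP1 and WWTR1, and the transcription factors TEAD1, TEAD2, TEAD3 and TEAD4, 10 genes chosen by name. RNA immunoprecipitation sequencing (RIP-seq) for YTHDF1, a cytoplasmic protein that reads N6-methyladenosine (m6A) on RNA, had been performed in SNU638 cells, an established gastric cancer cell line. All 4 libraries came from cells that overexpressed YTHDF1, were deprived of serum for 24 h and stimulated for a further 24 h with IFN-γ at 10 ng/ml. The 2 groups, IP-YTHDF1 (RNA recovered with the protein) and Input (RNA before recovery), had 2 biological replicates each. Untreated cells, cells without overexpression and a control recovery with IgG were not part of the comparison. Of the 10 genes, 8 had at least 1 listed window among the 7550 genes of the authors' peak table, with 37 of its 26819 windows.

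Each window spans 50 bases and carries 1 signal value with its p-value and its q-value and names no library. A legend of the study describes its protein-coding peaks as a union over replicates. The study counts fewer enriched genes than the protein-coding genes listed here, so this list is not shown to be that set. A window may rest on 1 replicate or on both. Depth per library is therefore unknown here, no value has a replicate error, and every difference between windows or genes below is a description without a test. What the signal value measures is unstated, so values are only ordered and no fold is given. All listed windows have a q-value of at most 0.05. The ranks of the signal values run up to 30760, beyond the 26819 windows, so the table does not hold every ranked window, and for a gene with no row an unlisted window, weak binding, low expression and absence of binding cannot be told apart. A peak list does not measure expression and cannot check the origin of the cells. Windows were listed for 4 of 5 general epithelial markers (KRT8, KRT18, KRT19 and EPCAM, not CDH1), with strongest signal values from 1.42 to 2.25, and for 0 of 5 markers of immune cells, fibroblasts and endothelium, beside 31.8% of all protein-coding genes.

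The Hippo pathway is a kinase relay that restrains growth when epithelial cells are crowded. STK3 and STK4 phosphorylate and activate LATS1 and LATS2, which in turn phosphorylate YAP1 and WWTR1 (also called TAZ) and thereby keep them in the cytoplasm or mark them for degradation. When the relay is off, YAP1 and WWTR1 enter the nucleus and switch on genes through the TEAD factors, which bind DNA. In gastric cancer the pathway is known for promoting growth when YAP1 and WWTR1 escape this restraint.

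YTHDF1 windows were listed at every level of the relay. A window was listed for 4 of 4 kinases, both co-activators and 2 of 4 TEAD genes, 8 of 10 genes in all, beside 31.8% of 20056 protein-coding genes in the RefSeq annotation. This background includes genes that SNU638 cells may not express. By the strongest listed window of each gene, the order was YAP1 (signal value 3.13), LATS1 (2.95), TEAD1 (2.88), STK4 (2.77), STK3 (2.57), TEAD4 (2.14), WWTR1 (2.10) and LATS2 (2.08). The first 5 lay above 2.56, the 75th percentile of the strongest windows of the 6679 listed protein-coding genes, and the last 3 lay below their median of 2.23. The median of the 8 genes was 2.67. The lists of YAP1 and LATS2 are incomplete, as described below, so their places hold for listed windows only. Without an error for any window, none of the neighbours in this order can be said to differ, but no value fell between 2.14 and 2.57.

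**Figure D1:**
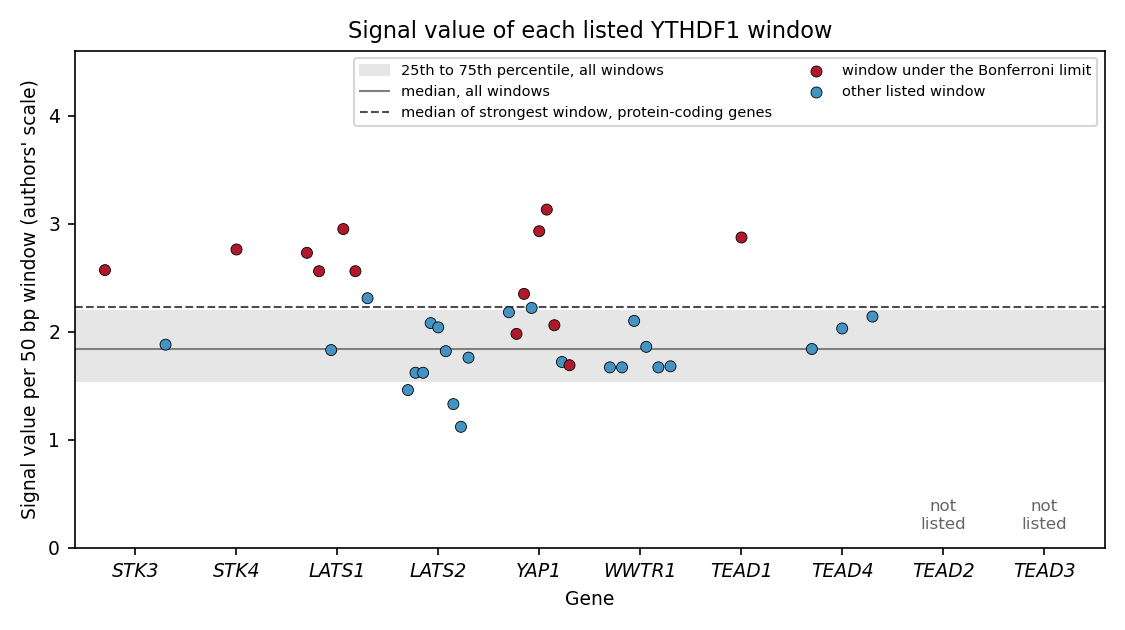
Signal value (authors' scale, vertical axis) of every listed 50-base window of the 10 genes, with the windows of a gene ordered from its 5′ to its 3′ end and red marking windows under the Bonferroni limit. The band is the 25th to 75th percentile of all 26819 windows (1.54 to 2.19), and all windows of LATS2, WWTR1 and TEAD4 lie below the dashed line at 2.23, while TEAD2 and TEAD3 have no window.

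The q-values were read as adjusted within each gene, so a stricter limit was also applied over the whole table. The windows tested in the listed genes were counted as 346153 by dividing each q-value by its p-value, and a Bonferroni limit of 0.05 over them left 13 of the 37 windows in 5 of the 10 genes. The share of protein-coding genes that kept a window under the same limit was 12.3%. YAP1 kept 6 windows, LATS1 kept 4, and TEAD1, STK4 and STK3 kept 1 each. WWTR1, TEAD4 and LATS2 kept 0. These counts cover listed windows, and YAP1 and LATS2 each have an unlisted window that is among the most significant of its gene.

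STK3 and STK4, the kinases at the top of the relay, each carried a compact signal. STK3 (ENSG00000104375, minus strand of chromosome 8) had a pair of adjacent windows from position 98883679 to 98883778. Counted from the 5′ end, the first had a signal value of 2.57 and a deposited q-value of 4.29e-07, and the next a signal value of 1.88 and a deposited q-value of 0.0133. The stronger one exceeded the strongest window of 75.1% of listed protein-coding genes. STK4 (ENSG00000101109, plus strand of chromosome 20) had 1 window, chr20:45001230-45001279, with a signal value of 2.77 and a deposited q-value of 5.37e-09. A single window was listed for 1934 protein-coding genes (29.0%), and the STK4 window exceeded 91.4% of those. Both genes were thus bound at 1 place only as far as the list shows, in STK3 58832 bases and in STK4 34718 bases from the 5′ end of the RefSeq gene.

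The LATS kinases, which act directly on YAP1 and WWTR1, were listed with windows of different number, strength and place. LATS1 (ENSG00000131023, minus strand of chromosome 6) had 6 windows in 2 blocks of 150 bases. The block at the 5′ end, chr6:149717904-149718053, began 48 bases inside the RefSeq gene, with signal values of 2.73, 2.56 and 1.83 in the direction of transcription. The other block, chr6:149702054-149702203, began 15898 bases inside the gene, with signal values of 2.95, 2.56 and 2.31. In both blocks the window nearest to the 5′ end was the strongest and the values fell from there. The top window had a deposited q-value of 5.04e-11, and the weakest, at 1.83, one of 0.00886. The 3 windows at the 5′ end also lie inside LOC645967, a lncRNA gene of the RefSeq annotation, for which the authors' table lists no overlapping window.

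LATS2 (ENSG00000150457, minus strand of chromosome 13) had 9 windows, none of the listed ones above a signal value of 2.08. Of these, 7 were scattered with gaps over chr13:20988037-20988886, and in the direction of transcription their signal values were 1.46, 1.62, 1.62, 2.08, 2.04, 1.82 and 1.33. The other pair, chr13:20975137-20975236, had signal values of 1.12 and 1.76 and ended 2101 bases before the 3′ end of the RefSeq gene. Among 854 protein-coding genes with 9 windows, whose strongest windows had a median of 2.48, the strongest LATS2 window exceeded 19.3%. For LATS1 the same comparison with 344 protein-coding genes of 6 windows (median 2.39) gave 84.9%. The weakest of the 6 LATS1 windows had a signal value of 1.83. Of the 9 listed LATS2 windows, 2 lay above that value and another lay just below it, at 1.82. No gap was found in the order of the LATS1 q-values, which does not show that its list is complete. The LATS2 list is incomplete, so this contrast in strength holds for listed windows only.

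YAP1, the main co-activator of the pathway, had the strongest listed window of the 10 genes. The gene (ENSG00000137693, plus strand of chromosome 11) had 9 listed windows, all within chr11:102110448-102111097, a stretch of 650 bases at the very start of a RefSeq gene of 122978 bases. The first pair of windows had signal values of 2.18 and 1.98. After a gap of 200 bases, a run of 7 adjacent windows had signal values of 2.35, 2.22, 2.93, 3.13, 2.06, 1.72 and 1.69. Among the 9 listed windows, the values were highest in those that begin 401 and 451 bases from the 5′ end. The higher of these is called the summit here. No value is listed in the gap, and at least 1 further window of the gene is unlisted, so the full shape is unknown. Signal value and p-value did not give the same order, since the window at 1.69 passed the Bonferroni limit and those at 2.18 and 2.22 did not. The summit window, chr11:102110898-102110947, had a p-value and a q-value listed as 0, below the numeric limit of the authors' peak caller, and exceeded 97.7% of all windows and the strongest window of 93.9% of listed protein-coding genes. Every listed YAP1 window passed a q-value of 0.001, the largest being 2.13e-05.

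The sequence at the beginning of the YAP1 signal is shown because the first window starts 1 base after the start of the RefSeq gene. The first 30 bases of that window in GRCh38.p14, chr11:102110448-102110477 on the plus strand, read 5′ to 3′ from the RefSeq promoter sequences as follows, with no part marked by capitals.
YAP1 first window: tcagtcgggcgcagccgccgccagggaaaa
Of these 30 bases, 21 are G or C. The m6A consensus DRACH (A, G or T, then A or G, then A, then C, then A, C or T) was not found on either strand in the 49 bases that the window shares with the RefSeq sequence, nor was the letter run GGAC. Of 22199 RefSeq protein-coding starts, 44.8% hold DRACH in their first 50 bases on the transcript strand and 48.4% on the opposite strand, and 19.8% and 18.8% hold GGAC, which overlaps DRACH when A, C or T follows. The sequence of the summit was not analysed here. The first window also overlaps YAP1-DT, a lncRNA gene of the RefSeq annotation that starts beside YAP1.

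**Figure D2:**
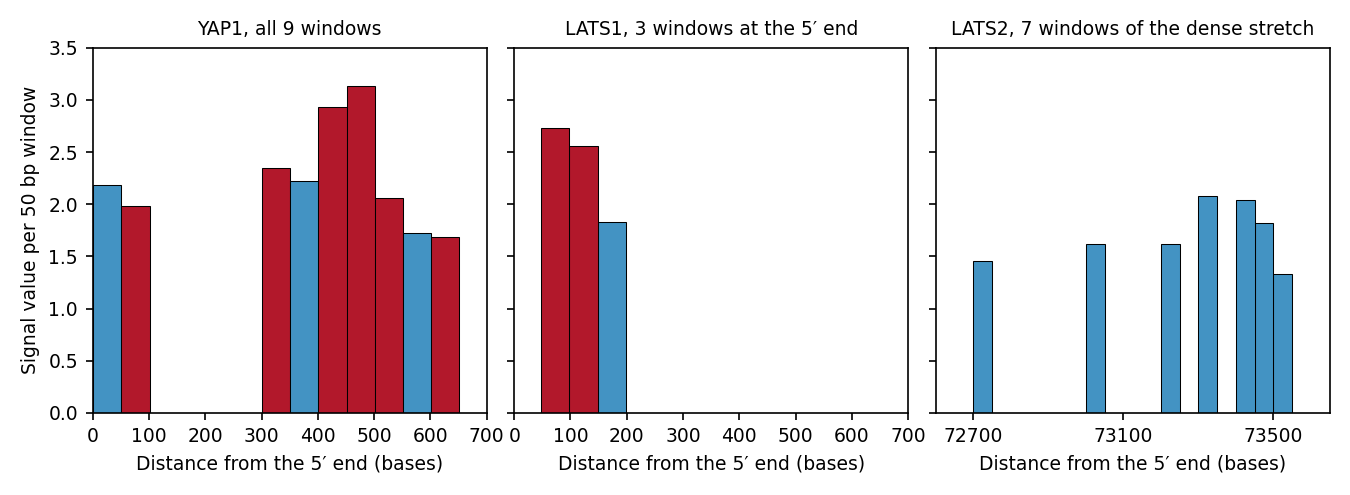
Signal value (vertical axis) of each 50-base window against its distance in bases from the RefSeq gene's 5′ end (horizontal axis) for YAP1, the LATS1 block at the 5′ end and the dense stretch of LATS2, with red bars under the Bonferroni limit. Listed values reach 3.13 and end at 1.69 in YAP1, fall from 2.73 to 1.83 in LATS1, and stay at or below 2.08 in LATS2. The panel of LATS2 covers a longer distance than the others.

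The list of windows was not complete for the 2 genes with 9 windows. Within a gene, windows carry numbers by position from the lowest coordinate, and no number above 9 occurs in the table. In the order of p-values that the q-values imply, the 9 YAP1 windows occupied positions up to 10 of 68 tested windows, so at least 1 window that passed is not listed. Its p-value was at most 3.16e-09, since the listed window at position 5 is only the fourth by p-value, and it would pass the Bonferroni limit of 1.44e-07. The 9 LATS2 windows reached position 11 of 82, which leaves at least 2 unlisted. A p-value of at most 1.13e-05 belongs to 1 of these, since the listed window at position 4 is only the third by p-value. The exact place and signal value of the unlisted windows are unknown, and the strongest window of either gene may be among them. If windows were numbered before the list was cut at 9, the unlisted ones lie at higher coordinates. That would be farther downstream in YAP1, on the plus strand, and nearer to the 5′ end in LATS2, on the minus strand. Whether the list was cut in this way was not tested. For the same reason, the listed places cannot be read as the whole pattern. This holds for the YAP1 windows at the 5′ end and for the LATS2 windows, 2101 to 15801 bases from the 3′ end. Among listed protein-coding genes, 12.8% had 9 windows. For STK3, TEAD4, WWTR1 and LATS1 the positions ran without a gap, up to 6 of 34 in WWTR1 and 6 of 67 in LATS1. A passing window after the last listed position would leave no gap. TEAD1 and STK4 have 1 listed window each, for which the method assumes position 1, so a gap could not be found. Their 75 and 48 tested windows are the smallest counts that q-value over p-value allows. Of 400 plus-strand genes with 9 windows that lie inside their RefSeq gene, 43 (10.8%) had all of them within 650 bases, as YAP1 did, and 23 of these 43 had a window within 200 bases of the 5′ end.

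WWTR1, the paralogue of YAP1, had 6 windows with signal values from 1.67 to 2.10 spread over a large part of its gene. In WWTR1 (ENSG00000018408, minus strand of chromosome 3) 4 windows lay in 2 pairs within chr3:149656936-149657235, with signal values of 1.67, 1.67, 2.10 and 1.86 in the direction of transcription. This group begins 790 bases after the start nearer to it of the 2 RefSeq starts used here and 67553 bases inside the longest RefSeq interval. The remaining windows, chr3:149572886-149572935 and chr3:149542436-149542485, were single and had signal values of 1.67 and 1.68. The strongest WWTR1 window had a deposited q-value of 0.00143, so none passed 0.001, in contrast to 9 of 9 for YAP1. It exceeded 23.0% of the strongest windows of the 344 protein-coding genes with 6 windows, whereas the YAP1 summit exceeded 86.4% of those of the 854 genes with 9.

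The TEAD factors, through which YAP1 and WWTR1 reach DNA, were listed in part. TEAD1 (ENSG00000187079, plus strand of chromosome 11) had 1 window, chr11:12764322-12764371, with a signal value of 2.88 and a deposited q-value of 1.58e-11. It was the only one listed for the gene and exceeded the window of 93.8% of protein-coding genes with a single one. TEAD4 (ENSG00000197905, plus strand of chromosome 12) had 3 separate windows with signal values of 1.84, 2.03 and 2.14 from the 5′ to the 3′ side and deposited q-values of 0.0293, 0.00151 and 0.000508. The first, chr12:2994931-2994980, lies 35534 bases inside the gene, and the others, chr12:3040381-3040430 and chr12:3040581-3040630, end 246 and 46 bases before its 3′ end. No row was found for TEAD2 (RefSeq interval on chromosome 19, 49340595 to 49362416) or TEAD3 (chromosome 6, 35473597 to 35497079).

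The 8 genes thus differed in where along the gene the windows lay. YAP1 and LATS1 had a window within 200 bases of the 5′ end, as did 2067 of 6263 listed protein-coding genes whose windows could be placed in a RefSeq gene (33.0%). TEAD4 had a window within 300 bases of the 3′ end, as did 218 of the 6263 (3.48%), counted over listed windows only. The listed windows of STK3, STK4, TEAD1, WWTR1 and LATS2 lay more than 30 kb from the 5′ end of the longest RefSeq interval. The interval can contain several transcripts, and exons, introns and untranslated regions were not analysed here. All 37 windows lay inside the RefSeq interval of their own gene, and 0 overlapped a listed window of another gene on either strand.

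**Figure D3:**
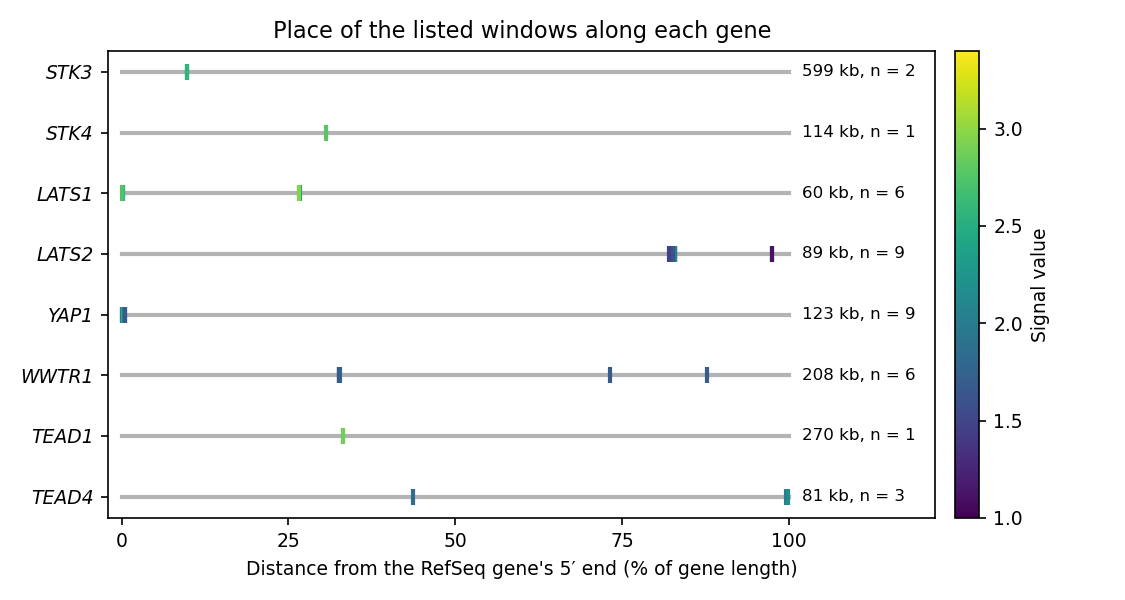
Place of each listed window (vertical ticks, coloured by signal value) along its gene, as percent of the length from the RefSeq 5′ end (horizontal axis), with the gene length and the number of windows at the right. The windows of YAP1 lie at 0%, those of LATS1 at 0% and 27%, and the last 2 of TEAD4 at 100%.

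Other genes of the pathway were examined in 4 lists. A window was listed for 44 of 74 genes (59.5%), beside the 31.8% of all protein-coding genes. Under the Bonferroni limit 22 of the 74 kept one, beside 12.3% of all protein-coding genes. The median of the strongest window was 2.29 over the 44 genes, against 2.67 for the 8 genes above and 2.23 for all listed protein-coding genes.

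Of 24 adaptors and activators of the kinases, 13 had a window, with a median strongest signal value of 2.50. TAOK1, a kinase that activates STK3 and STK4, had 6 windows and a strongest signal value of 3.36. MINK1, a kinase that can act on the LATS kinases, had 9 windows, the strongest at 3.09, and RASSF1, a scaffold that binds STK3 and STK4, had 2 windows, the strongest at 2.84. NF2, a membrane-associated scaffold for the LATS kinases, also had 9 windows, but its strongest reached 2.05. Of the direct adaptors, SAV1, the partner of STK3 and STK4, had 4 windows up to 2.77, while MOB1A and MOB1B, which bind and activate the LATS kinases, had no row.

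Of 14 proteins that hold back the kinases, 11 had a window, the largest share of the 4 lists, but with the lowest median, 2.06. The strongest were in STK24 (6 windows, signal value 3.28) and SIKE1 (4 windows, 3.07), both components of the phosphatase complex STRIPAK that dephosphorylates STK3 and STK4. SLMAP, which links this complex to the kinases, had 9 windows with the strongest at 2.28. STRN4 (strongest signal value 2.06) and LIMD1 (1.88), a LIM protein that binds the LATS kinases, had 9 windows each as well.

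Of 14 partners and competitors of YAP1, WWTR1 and the TEADs, 6 had a window, with a median strongest signal value of 2.47. CSNK1E and CSNK1D, kinases that add to the degradation mark on YAP1, had 9 windows each, the strongest at 2.66 and 2.43. RUNX1, a transcription factor, had 4 windows up to 2.64, and AMOTL2, which binds YAP1 at cell junctions, had 9 windows up to 2.51. VGLL4, which competes with YAP1 for the TEADs, had 1 window at 2.21, and VGLL1, VGLL2 and VGLL3 had no row.

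Of 22 genes commonly used as targets of YAP1 and WWTR1, 14 had a window, with a median strongest signal value of 2.14. TGFB2, a growth factor, and DOCK5, an exchange factor for RAC proteins, had 9 windows each and strongest values of 3.29 and 3.20. FJX1 had 5 windows up to 2.67, and ARHGEF17 had 9 up to 2.58. Among targets often measured in practice, CCN2 had 3 windows with the strongest at 1.73, CCN1 had 1 at 1.14, and ANKRD1 had no row. A strongest window below that of CCN1 was listed for 0.823% of protein-coding genes. CCN1, CCN2 and ANKRD1 were picked out for comment as standard readouts after their values were seen.

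**Figure D4:**
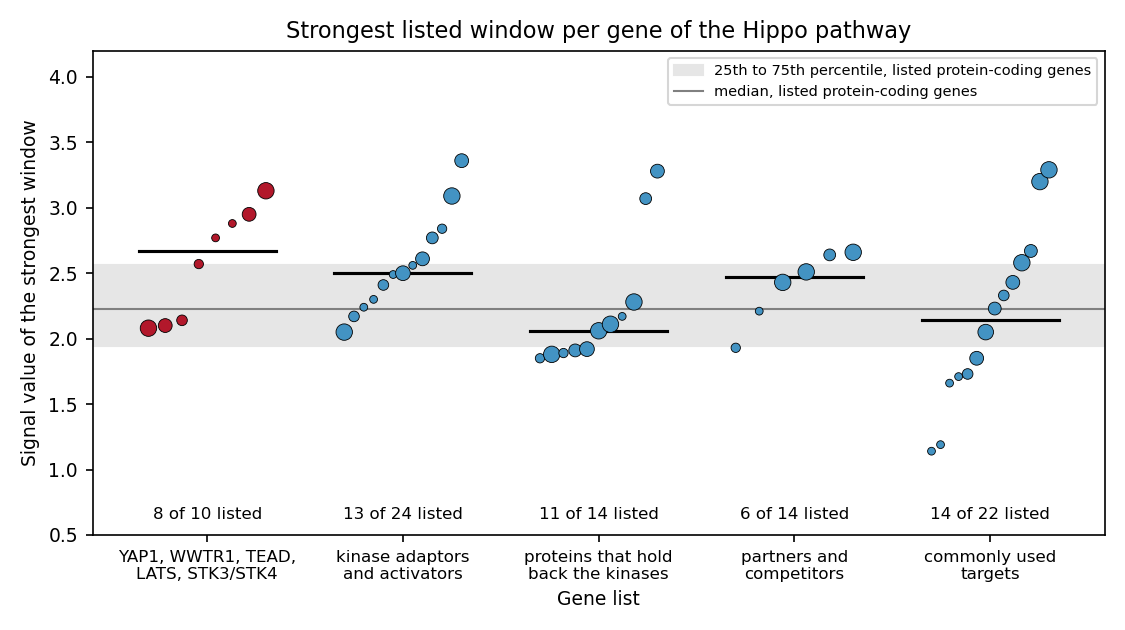
Signal value of the strongest window of each listed gene (vertical axis) in the 10 genes (red) and the 4 further lists (blue), with point size growing with the number of windows, black bars at the medians and a band from the 25th to the 75th percentile of listed protein-coding genes (1.94 to 2.56). Of the 10 genes, 5 lie above the band (STK3 only just, at 2.57) and 3 inside it, while TEAD2 and TEAD3 have no window. The 11 listed proteins that hold back the kinases mostly lie at or below the line at 2.23.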

How the data were processed

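RNA recovered with YTHDF1 and input RNA of SNU638 cells had been sequenced from stranded libraries depleted of ribosomal RNA, and the study's methods name antibodies to FLAG or IgG for the recovery. The submitters' processing notes name STAR 2.7.3a and GRCh38. The peak caller is not given in the sources used here. A legend of the study describes a union over replicates for protein-coding peaks, and how replicates entered the value of a window is not given. The values deposited by the authors form 1 table of peaks, where the signal value and its rank are scores of unstated scale and each p-value and q-value is the deposited value of the peak caller.

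Of 26820 rows, 1 exact repeat was dropped, and starts were changed to count from 1. Of 6674 protein-coding symbols, 6370 matched RefSeq (GRCh38.p14), and distances were taken from its gene intervals. Tested windows per gene were found from q-value over p-value, as Benjamini-Hochberg adjustment within a gene implies, with p-values above 1e-14 and a tolerance of 1%. Tested on simulated data, this recovered the number of windows within 1% in 100% of 1207 genes with 9 or fewer passing windows and in 80.65% of 775 genes shortened to 9, the case of YAP1 and LATS2, and it found a skipped position in 0% and 98.45% of them. In 47 genes of the deposited data the method gave no estimate and listed windows were counted. Genes without a listed window added none, and a gene with 1 listed window got the smallest count possible. The total is therefore a lower bound, and limits over all counted windows are more lenient than with a full count. No comparison of groups was run because no column belongs to a library. All 10 genes were named, and of each further list the 3 with the strongest window and those with 9 windows, up to 6, plus a few without regard to that rule (SAV1, MOB1A, MOB1B, VGLL1, VGLL2, VGLL3, VGLL4, CCN1, CCN2 and ANKRD1). A gene of these lists is not reported here by name. The genes and lists were chosen with earlier results of these data known. Python 3.11.15, pandas 2.3.3, NumPy 2.4.6 and matplotlib 3.10.9 were used.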

Additional observations from a re-analysis of the deposited data

How the results depend on the processing

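A window remained for 8 of the 10 genes with Benjamini-Hochberg adjustment over all counted windows (32 windows, median of the strongest 2.67), without windows shared with another gene on the same or on either strand (37 windows), and among windows not weaker than the median signal value of the table (23 windows). At a q-value of at most 0.001 it was 7 genes (WWTR1 lost) with 22 windows and a median of 2.77, and under the Bonferroni limit 5 genes with 13 windows and a median of 2.88. Of the 6679 listed protein-coding genes, 6538 kept a window with Benjamini-Hochberg adjustment over all counted windows, and 5657 at the median signal value or above. At a q-value of at most 0.001, 4464 remained, with a median of 2.42. Under the Bonferroni limit it was 2605, with a median of 2.63. These counts are out of listed genes only, whereas those of the Hippo genes are out of all 10, listed or not. Joining touching windows gave 20 regions. The mean of each gene's windows in place of the strongest gave a median of 2.24, against 1.93 for all listed protein-coding genes. Leaving out YAP1 and LATS2, an alternative chosen after the data were seen because their lists are incomplete, left 19 windows and a median of 2.67. The planned shares by transcript region and with the m6A consensus in the windows were not run, because no genome or exon annotation was used here. No paired analysis was possible because each window has 1 value that names no library, and for the same reason no replicate could be left out. Depth is unknown, so a gene without a row is not shown to be unbound.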
